A study of Rattus norvegicus with 2 samples.

Results

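The 10 genes followed here belong to neutrophil and eosinophil granulocytes and were compared between rat lung and cultured cells: S100a8, S100a9, Csf3r, Fpr1, Mpo, Camp, Ngp, Ltf, Lcn2 and Rnase3. Probes of the deposited value table were assigned to them by gene symbol, current synonym or RefSeq accession in the array's annotation. Of the 10 genes, 9 were measured, by 12 of 20417 named probes, among 15610 genes in all. Ltf, which encodes lactoferrin, was not analysed here, because none of the named probes carried its symbol. The set is broader than granule contents: S100a8 and S100a9 encode cytosolic proteins, and Csf3r and Fpr1 encode surface receptors.

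Gene expression was measured on 2-colour Agilent oligonucleotide arrays. Cells of the rat lung that had been neither cultured nor treated gave the Cy3 RNA, in 2 samples called replicates 1 and 2. The Cy5 RNA on both arrays was mix1, which pooled bone marrow cells and primary fibroblasts of the ear, each grown in medium with fetal bovine serum. No source used here gives the strain, the age or the number of animals, and whether the lung samples came from different animals is not stated. The p-values therefore cover the spread of these 2 arrays alone, which may be technical. They leave out the spread of mix1, and, with no swapped dyes, a dye effect cannot be told apart from the difference between the RNAs.

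Neutrophils are made in the bone marrow, where their granules are filled in order. Primary (azurophil) granule proteins such as myeloperoxidase are transcribed at the promyelocyte stage and secondary (specific) granule proteins such as cathelicidin at the myelocyte stage, and both gene programmes are largely shut off before the cell enters blood. Calprotectin and the surface receptors for chemoattractants and growth factor go on being transcribed in mature neutrophils, many of which are held in the vessels of the lung. Eosinophils fill their own granules with basic proteins and ribonucleases, also in the marrow.

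Lung markers and stroma markers lay at opposite ends of the arrays. Every value below is a log2 ratio of lung over mix1, so 1 unit is a 2-fold difference and a positive value is higher in lung. This direction is likely and not stated outright: it follows the series' wording and the 6 lung epithelial genes used to settle it, whose mean ratios ran from 3.94 to 7.02. If the ratios in fact ran from mix1 over lung, all directions would reverse. All 10 genes of fibroblasts and stroma passed as lower in lung, from -7.92 to -1.61. All 7 measured genes of leukocytes in general passed as higher, from 1.46 for the adaptor Tyrobp to 3.60 for Cd52, with the leukocyte phosphatase Ptprc at 2.22 ± 0.02 (SD, n = 2). Beside these counts, 32.9% of all genes passed as higher and 49.7% as lower. The median gene lay at -0.22, and the median SD between the arrays was 0.051. In these bulk samples, fewer cells of a type and less RNA per cell cannot be told apart.

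Sequence upstream of 3 of the genes is shown: S100a9 and Rnase3, which had the highest ratios, and Ngp, from the middle of the range. Each is the 250 bases before the gene's outermost annotated start, from RefSeq on build GRCr8, at chr2:178490623-178490872 on the minus strand for S100a9, chr15:26986270-26986519 on the minus strand for Rnase3 and chr8:119272355-119272604 on the plus strand for Ngp. Capitals mark matches to TTNNGNAA on either strand, the core letters bound by the C/EBP factors of granulocyte formation.
S100a9: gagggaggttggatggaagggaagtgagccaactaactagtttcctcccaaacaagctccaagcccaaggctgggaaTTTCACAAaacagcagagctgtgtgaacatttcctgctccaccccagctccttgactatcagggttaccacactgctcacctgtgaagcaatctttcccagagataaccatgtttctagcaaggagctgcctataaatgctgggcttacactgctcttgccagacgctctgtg
Rnase3: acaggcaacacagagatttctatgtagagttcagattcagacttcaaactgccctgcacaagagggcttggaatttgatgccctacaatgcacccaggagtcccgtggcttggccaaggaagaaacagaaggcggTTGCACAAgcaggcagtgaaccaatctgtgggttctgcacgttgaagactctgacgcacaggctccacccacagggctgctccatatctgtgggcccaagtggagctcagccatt
Ngp: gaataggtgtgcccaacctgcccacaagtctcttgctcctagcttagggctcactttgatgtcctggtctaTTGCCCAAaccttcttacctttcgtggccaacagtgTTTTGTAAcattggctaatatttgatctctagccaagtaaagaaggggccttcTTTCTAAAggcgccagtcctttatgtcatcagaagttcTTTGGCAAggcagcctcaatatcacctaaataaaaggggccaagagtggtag
The RefSeq table held a window of this length for 9 of the 10 genes, all but S100a8. In 5 of them the window ended at the outermost start of the gene. In the other 4 the table's start lay inside the annotated gene, 278 bases in for Mpo, 7293 for Fpr1, 94 for Csf3r and 71 for Lcn2, so these windows overlap their genes. The letters TTNNGNAA occurred in 7 of these 9 windows and in 36.8% of 27457 windows of the same length, so many genes carry them. Ngp had 4 matches, and S100a9, Rnase3, Mpo, Lcn2, Csf3r and Fpr1 had 1 each. Camp and Ltf, whose windows also ended at the outermost start and are not shown, had none. GAGGAAG, a core of PU.1 sites, occurred in the windows of Csf3r and Mpo and in 10.1% of all windows. AGATAA, a core of GATA sites, occurred in that of S100a9 and in 10.0% of all windows. Matches were searched on both strands and are a description of these windows, with no test.

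Of the 9 measured genes, 8 were higher in lung in limma's test of the ratio against 0 (Benjamini-Hochberg adjusted p under 0.05), none was lower and Mpo did not pass. Over all genes, 32.9% passed as higher and 49.7% as lower. The same 8 genes were at least 2-fold higher in both arrays, as were 16.5% of all genes. Their median ratio of 2.89, with Mpo included, stood beside -0.22 for all genes.

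**Figure D1:**
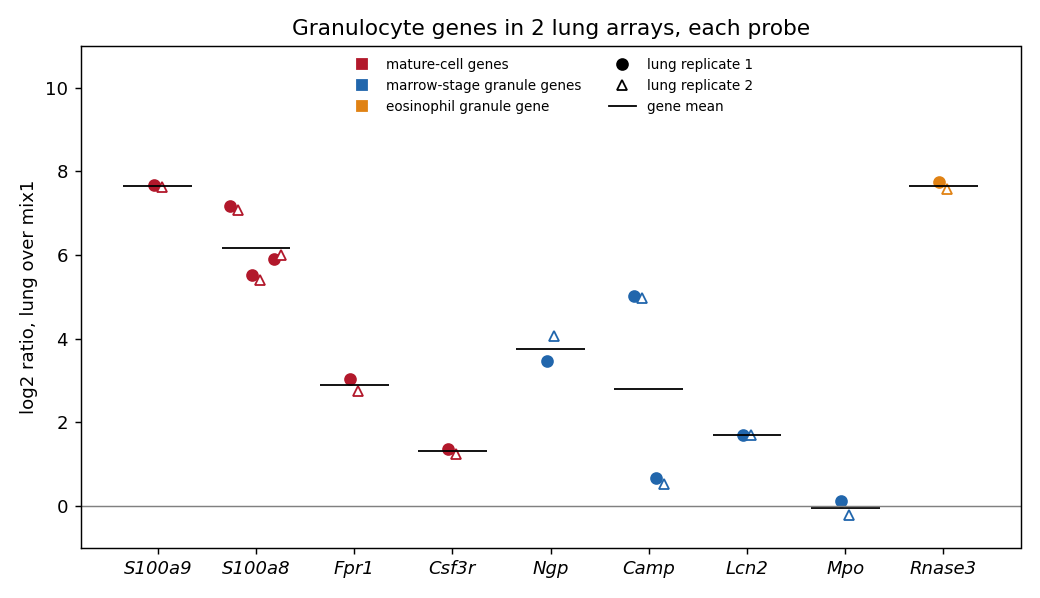
Log2 ratio of lung over mix1 (vertical axis) for each probe of 9 granulocyte genes (horizontal axis), with filled circles for lung replicate 1, open triangles for replicate 2, colours for the gene groups and a bar for the gene mean. The arrays lie close together for most genes, while the probes of Camp lie far apart, at means of 5.0 and 0.58.

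The calprotectin genes were among the highest on the arrays. S100a8 and S100a9 encode the subunits of calprotectin, a calcium- and zinc-binding complex that makes up much of the neutrophil cytosol, and they are neighbours on chromosome 2 with 0 protein-coding genes between them in assembly GRCr8. S100a9 had ratios of 7.67 in replicate 1 and 7.62 in replicate 2, ranks 7 and 6 of 15610 genes. Its mean of 7.65 ± 0.04 (SD, n = 2) corresponds to 201-fold (adjusted p 0.00117). S100a8 had ratios of 6.20 and 6.15, ranks 45 and 38, and its mean of 6.18 ± 0.03 corresponds to 72.4-fold (adjusted p 0.00117). The S100a8 value averages 3 probes. The probe for its RefSeq transcript lay at 7.16 and 7.07, and those for an expressed sequence tag at 5.53 and 5.39 and at 5.91 and 6.0. All of its probes were therefore far above 0, and they differed from each other by more than the arrays did.

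Keratinocytes and other squamous epithelia also make calprotectin. Of 9 measured keratinocyte markers, none passed as higher in lung and 4 passed as lower, beside 32.9% higher and 49.7% lower over all genes. They ranged from -2.63 for Tp63 to 0.03 for Krt10, with Krt5 at 0.002 ± 0.110 (SD, n = 2). The part of such cells in the calprotectin ratios was not tested.

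The receptors of mature neutrophils were higher in lung by smaller amounts. Fpr1, the receptor for formylated bacterial peptides, had ratios of 3.04 in replicate 1 and 2.75 in replicate 2, with a mean of 2.89 ± 0.21 (SD, n = 2), or 7.44-fold (adjusted p 0.00211). Csf3r, the receptor for granulocyte colony-stimulating factor, which drives the formation and survival of neutrophils, had ratios of 1.37 and 1.24, with a mean of 1.31 ± 0.09, or 2.47-fold (adjusted p 0.00244). Fpr1 ranked 769 and 877 among 15610 genes and Csf3r 2158 and 2304. Csf3r is also expressed by earlier cells of the granulocyte lineage, and its ratio was below the 2.22 of Ptprc.

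The granule genes of the marrow stages were divided, with the secondary granule genes higher in lung and the primary granule gene near 0. Mpo encodes myeloperoxidase, the haem enzyme of primary granules that makes hypochlorous acid. Its ratios were 0.12 in replicate 1 and -0.21 in replicate 2, on either side of 0, with a mean of -0.05 ± 0.23 (SD, n = 2; adjusted p 0.722). With each array's median subtracted, its mean was 0.14 and again did not pass (adjusted p 0.242). A ratio near 0 is found both for similar levels in lung and mix1 and for a dim signal in both channels. These cannot be told apart without the intensities. The single Mpo probe was assigned by gene symbol alone, because its annotated transcript is not among those now listed for the gene.

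Ngp encodes neutrophilic granule protein, a cathelicidin-related protein of secondary granules. Its ratios were 3.47 in replicate 1 and 4.05 in replicate 2, the widest gap between arrays among the 9 genes, with a mean of 3.76 ± 0.41 (SD, n = 2), or 13.6-fold (adjusted p 0.00345). Camp encodes the rat cathelicidin, an antimicrobial peptide precursor, and lies on chromosome 8 like Ngp, with 9 protein-coding genes between them in assembly GRCr8. Its gene ratios were 2.84 and 2.74, with a mean of 2.79 ± 0.07, or 6.93-fold (adjusted p 0.00120).

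The 2 probes behind that Camp mean differed by 4.42. The probe for the RefSeq transcript lay at 5.03 in replicate 1 and 4.97 in replicate 2, or 32.0-fold. The probe for an expressed sequence tag lay at 0.66 and 0.51, or 1.5-fold. Both passed as higher in lung, with adjusted p of 0.00110 and 0.00923 in a fit over all named probes. The size of the Camp difference therefore rests on which probe is read, while its direction does not.

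Lcn2 encodes lipocalin 2, which binds bacterial siderophores and is stored in secondary granules. Its ratios were 1.70 in replicate 1 and 1.69 in replicate 2, with a mean of 1.70 ± 0.000197 (SD, n = 2), or 3.24-fold (adjusted p 0.00123). Airway epithelium also makes lipocalin 2. All 8 airway epithelial markers that were not used to settle the direction passed as higher in lung, beside 32.9% of all genes. They ran from 2.96 for Muc5b to 6.87 for Cyp2f4. Their part in the Lcn2 ratio was not tested.

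**Figure D2:**
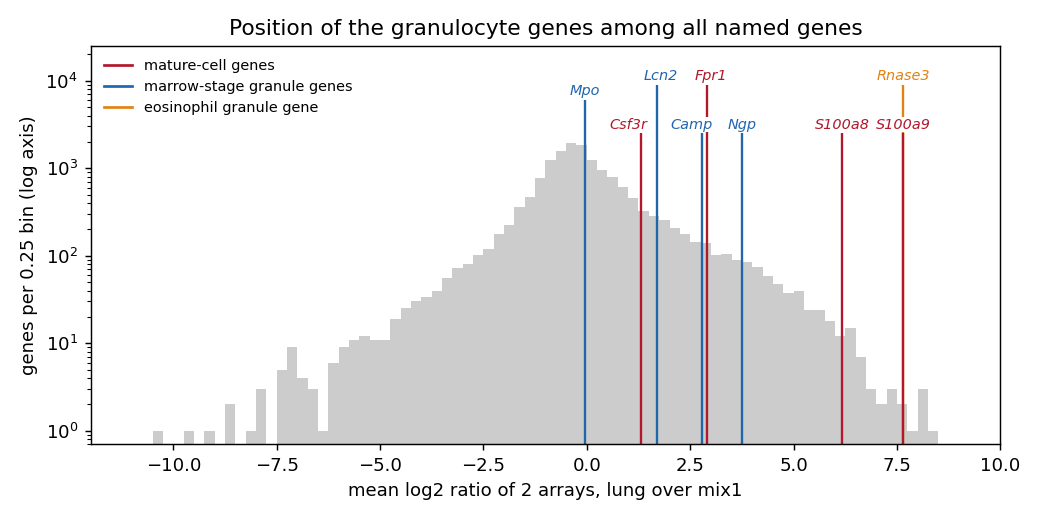
Number of genes (vertical log axis) by mean log2 ratio of lung over mix1 (horizontal axis, bins of 0.25) for all 15610 named genes in grey, with a vertical line at the mean of each granulocyte gene. S100a9 at 7.65 and Rnase3 at 7.66 lie at the upper end of the distribution, and Mpo at -0.05 lies in its centre.

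As groups, mature-cell and marrow-stage genes overlapped, with the calprotectin genes above all of the marrow-stage genes. The median ratio of the 4 mature-cell genes (S100a8, S100a9, Csf3r and Fpr1) was 4.62 in replicate 1 and 4.45 in replicate 2, against 2.27 and 2.22 for the 4 measured marrow-stage genes (Mpo, Camp, Ngp and Lcn2). The difference was 2.35 in replicate 1 and 2.23 in replicate 2, with a mean of 2.29 ± 0.08 (SD, n = 2). Of the 16 pairs of a mature-cell and a marrow-stage gene, the mature-cell gene had the higher ratio in both arrays in 12 and the lower one in both in 4. S100a8 and S100a9 were above all 4 marrow-stage genes, whereas Fpr1 was above 3 of them and Csf3r above Mpo alone. Fpr1 and Camp differed by 0.20 and 0.01, within the spread of Fpr1 between arrays. These counts use the mean of the Camp probes. With the lower Camp probe alone, 13 pairs were above and 3 below, and Csf3r was above Camp as well as Mpo. With the higher one alone, 11 were above and 5 below, and Fpr1 was above 2 of the marrow-stage genes.

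The receptors by themselves, with medians of 2.21 in replicate 1 and 1.99 in replicate 2, differed from the marrow-stage medians by -0.06 and -0.22. The sign of this difference rests on the Camp probe: it was 1.03 and 0.89 with the lower probe alone, and -0.38 and -0.88 with the higher one. When the lower of the Camp probes stood for the gene and the middle probe for S100a8, the difference between the groups was 3.29. No test was made of these differences, since genes are not replicates of a condition and an exact sign-flip permutation test on 2 arrays cannot give a two-sided p below 0.5. The ratios compare lung with mix1 gene by gene, and their order is no order of abundance within lung. Because mix1 pooled bone marrow cells, a lower ratio of a marrow-stage gene may reflect less RNA in lung or more in mix1. These cannot be told apart.

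**Figure D3:**
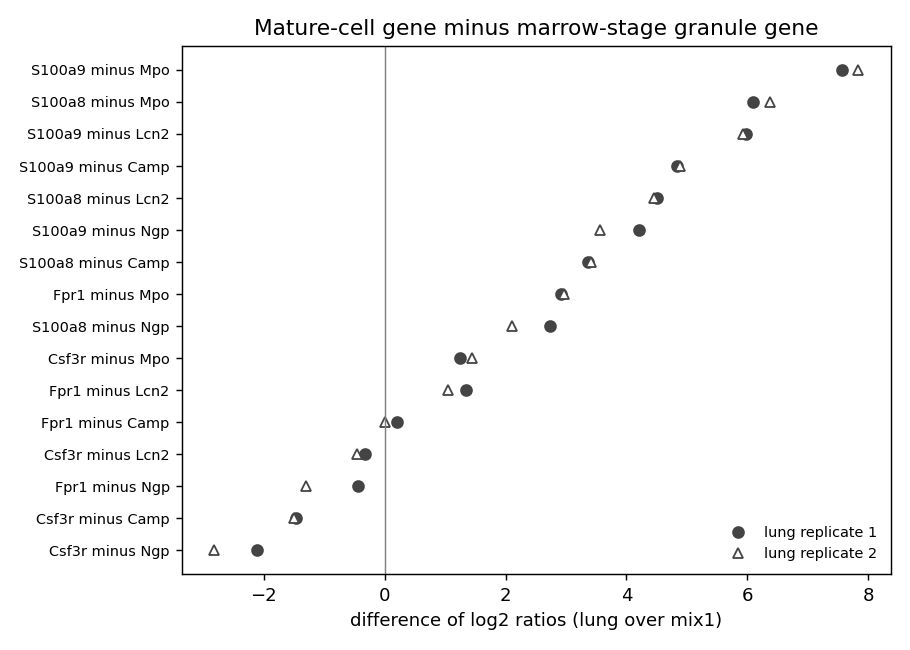
Difference of log2 ratios (horizontal axis, lung over mix1) between a mature-cell gene and a marrow-stage granule gene for each of 16 pairs (vertical axis), with filled circles for lung replicate 1 and open triangles for replicate 2. Differences run from 7.83 for S100a9 minus Mpo down to -2.81 for Csf3r minus Ngp, with 4 pairs below 0 in both arrays.

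Other genes of these granules differed by granule type in the same direction. Their lists were chosen with earlier results of these data known, so they are no independent check. Of 6 further primary granule genes measured, 3 passed as higher, 1 as lower and 2 did not pass, with a median of 0.13. The highest was the granule proteoglycan serglycin (Srgn) at 2.88 ± 0.07 (SD, n = 2), which many blood and endothelial cells also make. The serine protease genes Ctsg (0.68 ± 0.02), Prtn3 (-0.06 ± 0.04; adjusted p 0.236) and Elane (-0.29 ± 0.18; adjusted p 0.0846) lay within 2-fold of mix1, as did Ms4a3 (0.31 ± 0.13) and Bpi, a protein that binds bacterial endotoxin (-0.87 ± 0.07, lower in lung). Of 13 further genes of secondary and tertiary granules and secretory vesicles, 12 passed as higher and none as lower, with a median of 2.71. In both arrays, 10 were at least 2-fold higher, beside 16.5% of all genes. Over all genes, 32.9% passed as higher and 49.7% as lower, which stands beside the counts of both lists and of those below. The collagenase gene Mmp8 lay at 5.24 ± 0.05, lysozyme (Lyz2), which macrophages also make, at 4.61 ± 0.03, and the neutrophil surface and granule protein gene Cd177 at 4.16 ± 0.0026. At the low end, Slpi lay at 0.50 ± 0.02, Orm1 at 0.24 ± 0.02 and the leukotriene receptor Ltb4r at -0.26 ± 0.15 (adjusted p 0.0760). The medians of the secondary and primary lists differed by 2.52 in replicate 1 and 2.63 in replicate 2. For the genes near 0, as for Mpo, similar levels and a dim signal in both channels cannot be told apart. The part of other cells, or of the bone marrow cells in mix1, in these ratios was not tested.

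Alpha defensins are a family that includes antimicrobial peptides of neutrophil granules. All 3 measured genes were higher in lung, or 2 of 3 when the lower probe stood for Np4. Defa5 lay at 5.78 ± 0.09 (SD, n = 2), or 55.0-fold, RatNP-3b at 3.63 ± 0.08 and Np4 at 0.99 ± 0.12. Rat defensin genes resemble each other closely, so a probe may read more than 1 of them. Which cells of the lung gave the defensin ratios was not tested. The probes of Np4 disagreed, with means of -0.05 and 2.04. Stefin A genes, which encode inhibitors of cysteine proteases, held a single high member: Stfa2l3 lay at 7.45 ± 0.23, or 175-fold, while Stfa2l1 (-0.26 ± 0.09), Stfa3 (-0.46 ± 0.04) and Csta (-1.93 ± 0.28) passed as lower. The Stfa2l1 call ended when array medians were subtracted, and the probes of Csta lay at -4.41 and 0.54.

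Other receptors and surface proteins of blood neutrophils were mostly higher in lung, 11 of 14 measured genes, with 2 lower, 1 not passing and a median of 1.83. The IgG receptor Fcgr3a lay at 4.76 ± 0.01 (SD, n = 2), the chemokine receptor Cxcr1 at 4.14 ± 0.06 and the sialic acid-binding receptor Siglec5 at 3.72 ± 0.19. The decoy receptor Il1r2 (-1.17 ± 0.01) and the shared cytokine receptor chain Csf2rb (-0.32 ± 0.04) passed as lower, Csf2rb not with array medians subtracted, and the selectin ligand Selplg lay at -0.14 ± 0.08 (adjusted p 0.105). The median of this receptor list was above that of the primary granule list by 1.61 in replicate 1 and 1.75 in replicate 2. It was below that of the secondary granule list, with differences of -0.91 and -0.89. In these wider lists, then, receptors lay between the granule types. The receptor median was also below the 2.10 of the genes of leukocytes in general. The part of other leukocytes in the receptor ratios was not tested.

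The phagocyte NADPH oxidase, which makes superoxide in neutrophils and macrophages, had 4 of 5 measured genes higher. The cytosolic subunit Ncf1 lay at 2.50 ± 0.05 (SD, n = 2), Rac2 at 1.81 ± 0.02, the catalytic subunit Cybb at 1.12 ± 0.10 and Ncf4 at 0.28 ± 0.0042. Its membrane partner Cyba, which is expressed in many other cells, was lower at -0.76 ± 0.01. Among 9 transcription factors of granulocyte formation, 7 were higher and 2 lower. Gfi1, a repressor needed for neutrophil formation and also active in lymphocytes, lay at 5.61 ± 0.27, Gata2 at 2.41 ± 0.26 and Spi1, the gene of PU.1, at 1.98 ± 0.05. Gata1 lay at 0.55 ± 0.14, Cebpd at -0.51 ± 0.04 and Runx1 at -0.67 ± 0.04. Cebpe, the factor of secondary granule genes, chosen after its values were seen, lay at 1.25 ± 0.22.

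The eosinophil gene Rnase3 was far above the other eosinophil genes. Rnase3 encodes an eosinophil cationic ribonuclease and is annotated on the array under its older name Ear11. Its ratios were 7.74 in replicate 1 and 7.57 in replicate 2, ranks 6 and 7 of 15610 genes, with a mean of 7.66 ± 0.12 (SD, n = 2), or 202-fold (adjusted p 0.00117). Of 6 further eosinophil genes, 5 passed as higher and 1 as lower. The lipoxygenase Alox15, which macrophages and epithelium also express, lay at 2.85 ± 0.10, the granule major basic protein genes Prg3 at 1.82 ± 0.35 and Prg2 at 1.25 ± 0.26, and eosinophil peroxidase (Epx) at 0.88 ± 0.35. The eotaxin receptor Ccr3 lay at 0.19 ± 0.06 and the interleukin 5 receptor Il5ra at -0.25 ± 0.10, the 1 that passed as lower, a call that ended when array medians were subtracted. Within the arrays, Rnase3 exceeded Prg3 by 5.68 and 6.0 and Epx by 6.62 and 6.95. Rnase3 belongs to a family of closely related rodent ribonucleases, so its single probe may read other members. Which cells of the lung gave the Rnase3 ratio was not tested.

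**Figure D4:**
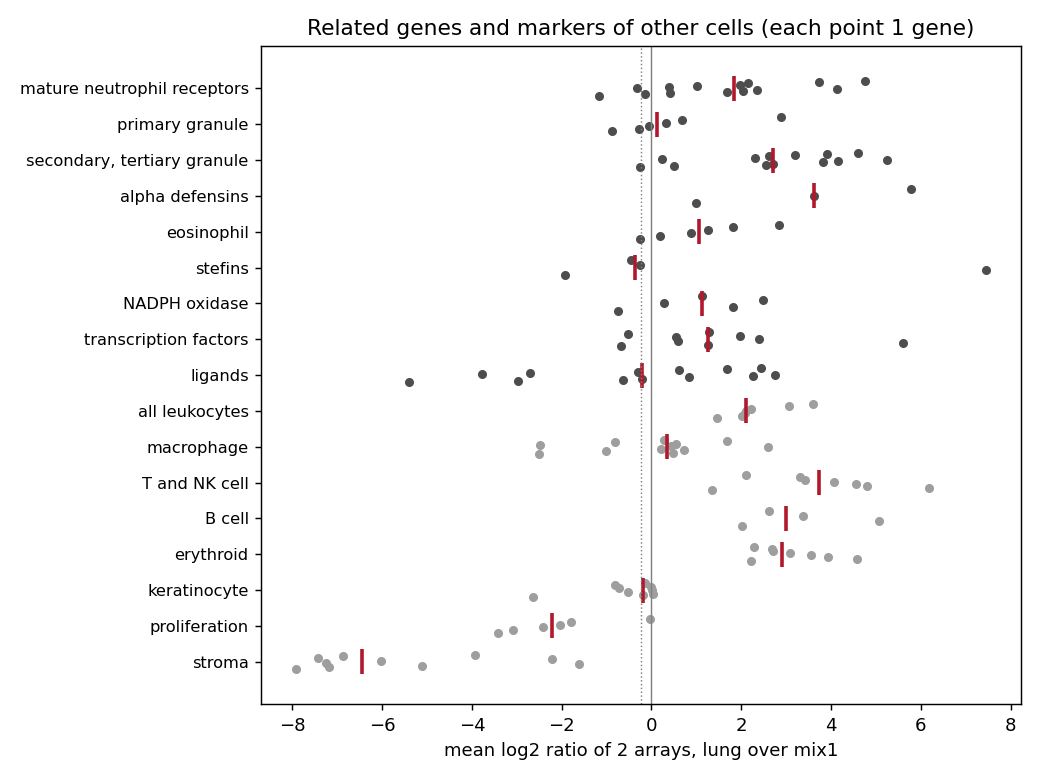
Mean log2 ratio of lung over mix1 (horizontal axis) for each gene of 17 lists (vertical axis), with dark points for granulocyte-related lists, grey points for markers of other cells and of cell division, red bars for list medians, a solid line at 0 and a dotted line at the median of all genes. The secondary and tertiary granule genes have a median of 2.71, against 0.13 for the primary granule genes, and 9 members described above are left out of the lists.

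Ligands that act on granulocytes were split, with 6 of 13 higher, 6 lower (4 with array medians subtracted) and 1 not passing. With the median probe, 4 were higher and 7 lower. These counts stand beside 32.9% higher and 49.7% lower over all genes and are no result about the ligands as a list. The neutrophil-attracting chemokine genes Cxcl2 (-5.41 ± 0.04; SD, n = 2), Cxcl1 (-3.78 ± 0.03) and Cxcl6 (-2.97 ± 0.23) were the lowest. The growth factor genes Csf2 (2.74 ± 0.04) and Kitlg (2.44 ± 0.10) were the highest. Cxcl3 had a mean of 2.26 ± 0.07 that describes neither of its probes, which lay at 8.20 and -3.67. Csf3, the ligand of Csf3r, chosen after its values were seen, lay at -0.94 in replicate 1 and -0.35 in replicate 2 and did not pass (adjusted p 0.0799).

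Genes of red cells, platelets and lymphocytes were also mostly higher in lung, while macrophage genes were mixed. All 8 measured erythroid genes passed as higher (7 with the median probe), from 2.22 for Rhag, whose probes lay at -0.02 and 4.46, to 4.58 for Epb42, with beta globin (Hbb) at 3.94 ± 0.07 (SD, n = 2). All 6 platelet genes passed as higher, from 1.08 for Pf4 to 8.38 for Clec1b. All 8 genes of T and NK cells passed as higher, with a median of 3.74, from 1.34 for the kinase Lck to 6.18 for the CD3 gamma chain Cd3g. Of 4 measured B cell genes, 3 passed as higher, with a median of 3.0 for the list and Bank1 the highest at 5.06 ± 0.17 (probes at 3.74 and 6.38), while Ms4a1 lay at 0.01 in replicate 1 and 4.01 in replicate 2 and did not pass (adjusted p 0.271). Both lymphocyte medians were above the 2.71 of the secondary and tertiary granule genes. Macrophage genes were mixed, 7 of 12 higher and 4 lower, from -2.51 for Cd14 to 2.59 for Mrc1. The higher count was 5 with the median probe and 8 with array medians subtracted, beside 32.9% higher and 49.7% lower over all genes. Genes of dividing cells went the other way: 5 of 6 were lower and Aurkb did not pass, with Cdk1 at -3.42 ± 0.07 and Mki67 at -1.79 ± 0.0039. Marrow progenitor genes were higher for 4 of 5 (3 with the median probe), with Gata2 as above, Flt3 at 0.82 ± 0.35, Cd34 at 0.67 ± 0.12 and the probes of Kit at -0.02 and 4.13, while Hoxa9 was lower at -4.14 ± 0.05. The part of these cells in the granulocyte ratios was not tested.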

How the data were processed

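Per the labels' protocols, TRIzol extracts of the cell pellets were cleaned up on columns to give total RNA. Per the submitters' processing notes, Agilent Feature Extraction was used. Neither its version nor its background correction, dye normalization and centring could be taken from these sources, and background handling sets the size of ratios in which 1 channel is dim. The deposited values were taken as log2 ratios, because they run from -11.74 to 9.09, too wide for base-10 ratios of a scanner; no source states the base. Array medians were -0.16 and -0.21 and were left as deposited.

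Probes were named through GEO's platform annotation and the gene table of assembly GRCr8, 16978 by accession, 3045 by symbol and 389 by synonym, while 5 kept the annotation's symbol and 19595 of 40012 stayed unnamed. Probes of a gene were averaged. Ratios were tested against 0 in an intercept-only model with moderated variances (limma 3.58.1, R 4.3.3), with 1 residual and 1.28 prior degrees of freedom, and p-values were adjusted by Benjamini-Hochberg over 15610 genes (threshold 0.05). The test was checked on simulated data. The number of arrays limits the precision.

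The genes and lists were chosen with earlier results of these data known, so no list was tested as a set. All members are named, and from each list up to 3 of the highest and 3 of the lowest genes. The settings tried as alternatives were scaling between arrays, subtraction of array medians, the median probe (the lower middle one), single probes, robust eBayes, treat, an adjusted p under 0.01, each array left out, and other summaries of the gene groups.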

Additional observations from a re-analysis of the deposited data

How the results depend on the processing

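All 8 genes that passed as higher in lung kept their direction and passed with array medians subtracted, scaling between arrays, the median probe, robust eBayes, treat against a 2-fold change and an adjusted p under 0.01, and Mpo passed in none of these. Camp fell to 0.58 with the median probe. Treat left 2143 of 15610 genes higher and 1881 lower, against 5142 and 7765 in the test against 0, and 28 of the 60 genes of the granulocyte lists higher and 2 lower, against 46 and 10. Treat tests a stricter hypothesis, so fewer calls follow from its construction. The difference between mature-cell and marrow-stage medians of 2.29 became 3.29 with the median probe, where the lower Camp probe stands for the gene, 1.74 with Rnase3 counted among the marrow-stage genes and 2.46 with means in place of medians. It was 2.23 without replicate 1 and 2.35 without replicate 2. With the RefSeq probe alone for S100a8 and Camp, a setting chosen after seeing the data, it was 2.28. With 1 Camp probe alone, also chosen after seeing the data, it was 1.81 for the RefSeq probe and 3.40 for the expressed sequence tag probe. Subtracting array medians raised the median gene by 0.19. It left 4 ligands lower in place of 6, 2 stefins in place of 3, 1 receptor in place of 2 and no eosinophil gene in place of 1. It also left 8 macrophage genes higher in place of 7, and 8 mast cell and basophil genes in place of 7. No paired analysis was possible because the only group is lung, and with 1 array left out no residual degrees of freedom remain for a test. Signal over background is unknown without intensities.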

Other observations

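Of 9 other S100 genes measured, 3 passed as higher in lung and 6 as lower (5 lower with array medians subtracted), beside 32.9% higher and 49.7% lower over all genes, so the counts are no result about the family. S100g, a vitamin D-dependent calcium-binding protein gene, lay at 6.41 ± 0.11 (SD, n = 2) and S100a1 at 1.98 ± 0.02, whereas S100a4, which fibroblasts express, lay at -3.57 ± 0.05 and S100a5 at -2.99 ± 0.06. Among mast cell and basophil genes, 7 of 8 passed as higher (8 with array medians subtracted), beside 32.9% of all genes. The basophil protease gene Mcpt8 lay at 3.26 ± 0.18, Cpa3 at 2.93 ± 0.07 and Tpsab1 at 0.01 ± 0.0017 (adjusted p 0.858).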
